A study of Homo sapiens with 6 samples.

Results

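The genes described here encode the machinery of mitochondrial protein import. They were chosen by name, as the 33 rows of the deposited count table that carry the symbols of the outer membrane translocase (TOM), the inner membrane translocases (TIM23 and TIM22), the small TIM chaperones, the import motor, the sorting and assembly machinery (SAM), the intermembrane space import pathway (MIA) and the presequence peptidase. The table has 42656 rows, and all 33 symbols were found in it. Of the 33, 32 passed the filter on low counts and were tested. The other was PAM16, a regulator of the import motor, with 12, 4 and 8 counts in the shCtrl libraries and 7 in each shMEX3A library.

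Nearly every mitochondrial protein is made in the cytosol and must cross one or both mitochondrial membranes. Receptors of the TOM complex bind the precursor and pass it to the TOMM40 channel. From there, precursors with a cleavable presequence go through TIM23, pulled in by a motor built around the HSP70 protein HSPA9, and lose the presequence to a peptidase of an alpha and a beta subunit. Carrier proteins are led by small TIM chaperones to TIM22, beta-barrel proteins to SAM, and small cysteine-rich proteins of the intermembrane space are oxidised by CHCHD4 in the MIA pathway.

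The cells were TOV21G, an established line labelled as ovarian clear cell carcinoma. They were transduced with lentiviral hairpins at a multiplicity of infection of 50 and harvested on day 3. The control arm (shCtrl) received TRC2-Scramble_ASN0003 and is labelled WT, the other arm (shMEX3A) received TRCN230492 and is labelled MEX3A knockdown, and each arm has 3 libraries. Both arms were grown in medium with 15% serum. Each arm rests on 1 hairpin in 1 cell line. The labels do not tie the libraries to separate cultures, so the p-values are set by how far these libraries scatter, and that scatter can be technical.

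MEX3A, an RNA-binding protein and the target of the hairpin, was at 68.8, 70.7 and 67.6 CPM in shCtrl and at 19.6, 21.0 and 22.2 CPM in shMEX3A (log2 fold change -1.72, SE 0.046). Library totals ran from 34662635 to 48228216 counts. Of 8 clear cell carcinoma markers 4 rose and 4 fell, among them PAX8 (log2 fold change 0.61), TFPI2 (3.13) and ANXA4 (-1.61), and NAPSA stayed under 1 CPM in each library although called higher. Of 5 epithelial markers KRT8 (0.55) and KRT18 (0.71) rose and CDH1 (-1.43) fell. Of markers of other cells, 5 of 6 for leukocytes and 5 of 5 for endothelium were under 1 CPM in every library. The 6 fibroblast markers summed to between 584 and 596 CPM in shCtrl and between 1248 and 1284 CPM in shMEX3A, with LUM, PDGFRA and PDGFRB under 1 CPM in every library, and the part of this shift in the results below was not tested. CPM values are counts scaled to a common library total, and fewer cells of a type and less RNA per cell cannot be told apart.

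The genes for the import machinery share promoter letters to a limited degree. Promoters of 300 bases, from 250 bases before to 50 after the RefSeq start (GRCh38.p14), were found for 30 of the 33 genes. The letters GCGCA, any base and GCGC, the core bound by nuclear respiratory factor NRF1, a regulator of many nuclear genes for mitochondrial proteins, lay in this order on either strand in 7 of these 30 (23.3%), against 6.28% of 27305 promoters and 11.3% of the 12001 promoters of tested genes. The ETS letters CCGGAAGT lay in 6 of 30, against 4.44% of all promoters and 8.20% of those of tested genes. The YY1 letters AAGATGGCG lay in PMPCA and TIMM50, or 6.67% of the 30, against 3.71% of promoters of tested genes. The SP1 letters GGGGCGGGG lay in 6 of 30, against 27.0% of promoters of tested genes, and the E-box CACGTG in 4 of 30, against 9.89%. Matches of different motifs did not overlap in these promoters. The 30-base windows below are shown because the genes that carry the NRF1 letters went in different directions, with the motif letters in capitals and the sequence on the strand of the gene.
TOMM20, chr1:235128919-235128948, minus strand: ttcgcccactGCGCAGGCGCaggagccgcg
CHCHD4, chr3:14125003-14125032, minus strand: cagtgtttctGCGCATGCGCgcggcgagac
TIMM29, chr19:10928727-10928756, plus strand: ggtaaagttgGCGCTTGCGCagaagagact
TOMM40, chr19:44891022-44891051, plus strand: gagccaatagGCGCAGGCGCtgcgagccaa
TOMM7, chr7:22822844-22822873, minus strand: gccgtgtgtgGCGCCTGCGCacctcctttc
TOMM34, chr20:44960392-44960421, minus strand: ttcgccgccgGCGCTTGCGCccggaaggtg
PMPCA, chr9:136410656-136410685, plus strand: gcggagacgcAAGATGGCGgctgtggtgct
TIMM50, chr19:39480841-39480870, plus strand: gcgtcagcgcAAGATGGCGgcctcggcagc
Of the tested genes with the NRF1 letters, TOMM20, CHCHD4 and TIMM29 were lower in shMEX3A, TOMM34 was higher, and TOMM40 and TOMM7 were not called. PAM16, the last of the 7, was not tested. The YY1 letters lie in PMPCA, which rose, and in TIMM50, which fell. A match of letters describes the window and shows no binding.

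Import genes were lower in shMEX3A more often than higher, by small amounts. At an adjusted p under 0.05 (edgeR's quasi-likelihood test, Benjamini-Hochberg over 15679 tested genes), 20 of the 32 tested genes fell and 5 rose. Over all tested genes 69.7% were called, 34.0% higher and 35.6% lower. The median log2 fold change was -0.21 over the import genes and -0.01 over all tested genes. No import gene changed 2-fold, whereas 12.5% of all tested genes were called with at least a 2-fold change. With offsets for GC content and transcript length 17 import genes were lower and 10 higher, with a median of -0.14. Over all 14480 genes tested with these offsets, 5207 were lower and 5287 higher.

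In 20 import genes all 3 shMEX3A libraries lay below all 3 shCtrl libraries, in 3 they lay above, and in 9 the arms overlapped. Over all tested genes the arms did not overlap in 72.3%, with 36.9% below and 35.4% above. Summed over the 33 genes, the share of a library's counts was 0.254% ± 0.0042 for shCtrl (SD, n = 3) and 0.230% ± 0.0025 for shMEX3A (SD, n = 3). Without HSPA9, the most highly counted of them, the values were 0.184% ± 0.0037 and 0.163% ± 0.00092.

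**Figure D1:**
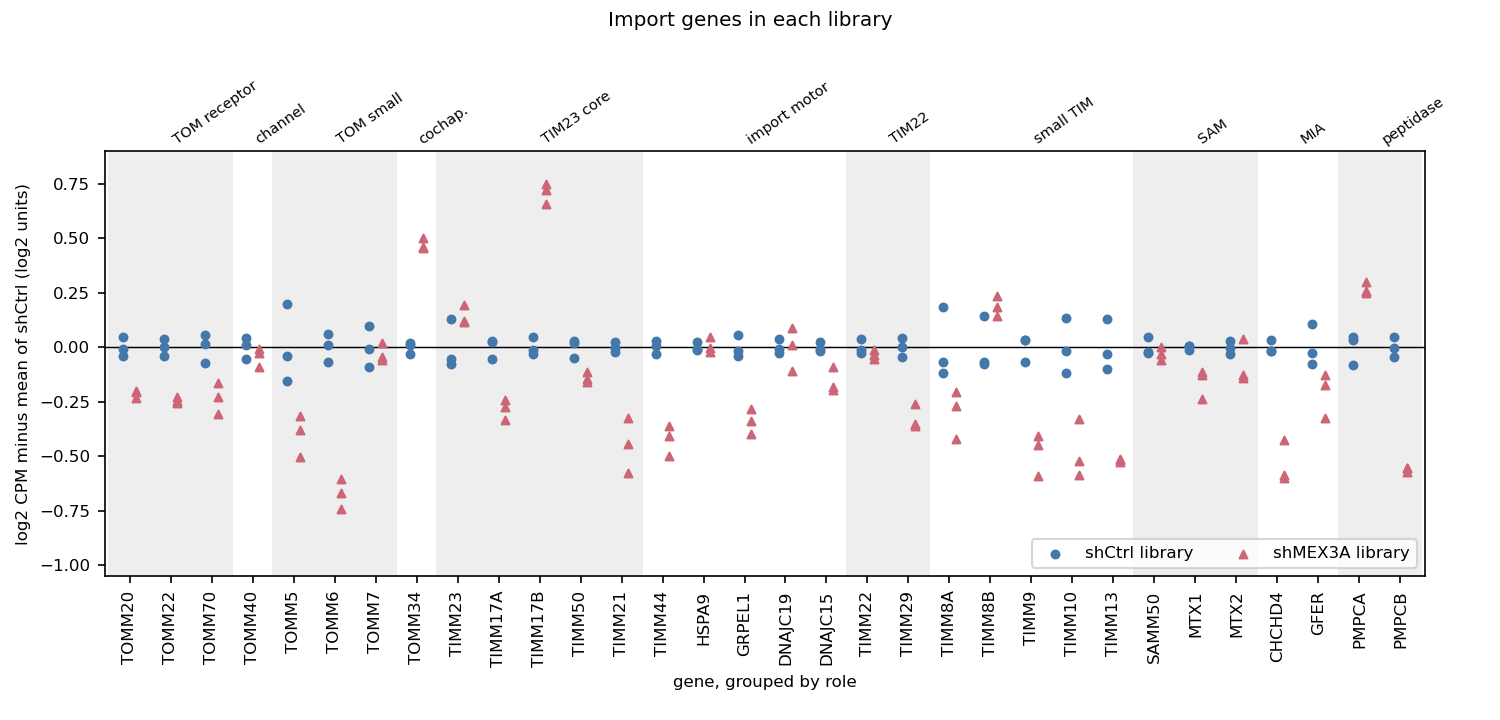
Level of each tested import gene in each library, as log2 CPM minus the mean of the shCtrl libraries (vertical axis, log2 units), with genes grouped by role on the horizontal axis, circles for shCtrl and triangles for shMEX3A. Triangles lie below all circles in 20 genes and above them in TOMM34, TIMM17B and PMPCA.

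The 3 receptors of the TOM complex fell together. TOMM20, which binds presequences, had 162, 165 and 172 CPM in shCtrl and 145, 144 and 141 CPM in shMEX3A (log2 fold change -0.21, SE 0.032). TOMM22, the central receptor that also holds the complex together, had 152, 144 and 148 CPM and then 125, 124 and 126 CPM (-0.24, SE 0.033). TOMM70, the receptor for carrier precursors brought by chaperones, had 55.8, 54.3 and 51.2 CPM and then 45.8, 48 and 43.4 CPM (-0.23, SE 0.044). In none of these did the arms overlap. With GC and length offsets TOMM20 was at -0.06 and lost its call (edgeR adjusted p = 0.0541), TOMM22 was at -0.09 and TOMM70 at -0.13.

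The channel did not pass the test with its receptors. TOMM40, the pore of the complex, was at 116, 114 and 109 CPM in shCtrl and 106, 111 and 112 CPM in shMEX3A, so the arms overlapped (log2 fold change -0.04, SE 0.035, edgeR adjusted p = 0.288). With GC and length offsets it was at -0.22 and was called lower (edgeR adjusted p = 1.5e-07).

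The small TOM subunits, single-span proteins that shape the complex, were uneven. TOMM6 had the largest fall among the import genes. It had 64.8, 59.2 and 62.5 CPM in shCtrl and 39.0, 37.1 and 40.8 CPM in shMEX3A, with a wide gap between the arms (log2 fold change -0.68, SE 0.043, edgeR adjusted p = 1.36e-16). TOMM6 spans chromosome 6, 41787662 to 41789898, plus strand (GRCh38, GENCODE 29). All its exon bases lie under exons of AL365205.1, a gene on the same strand for which no value was used here. USP49, on the other strand, covers 0.471% of them. TOMM5 fell from 33.8, 28.6 and 26.4 CPM to 22.6, 23.6 and 20.8 CPM (-0.40, SE 0.086), with the shCtrl libraries spread widely, and with GC and length offsets it was at -0.22. In TOMM5 18.7% of the exon bases lie under exons of other genes on the same strand. TOMM7, which loosens the complex and is needed to hold PINK1 at the outer membrane, was at 48.1, 42.2 and 44.6 CPM and then 45.6, 43.2 and 43.5 CPM, with overlapping arms (-0.03, SE 0.046, edgeR adjusted p = 0.565). With the offsets TOMM7 was called higher, at 0.19.

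TOMM34, a cytosolic cochaperone of HSP70 and HSP90 that keeps precursors unfolded, rose. It had 74.3, 77.0 and 76.4 CPM in shCtrl and 105, 104 and 107 CPM in shMEX3A, tight in both arms and far apart (log2 fold change 0.47, SE 0.035, edgeR adjusted p = 8.12e-15). TOMM34 spans chromosome 20, 44942130 to 44960486, minus strand, with none of its exon bases under another gene.

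In the TIM23 translocase both forms of one subunit went opposite ways. TIMM17A and TIMM17B are paralogs that take the same place beside the TIMM23 channel in separate TIM23 complexes. TIMM17B (chromosome X, 48893447 to 48898143, minus strand) had 28.6, 29 and 30.2 CPM in shCtrl and 48.3, 46.1 and 49.2 CPM in shMEX3A (log2 fold change 0.71, SE 0.046, edgeR adjusted p = 1.1e-16), the largest rise among the import genes. TIMM17A (chromosome 1, 201955491 to 201970661, plus strand) had 48.7, 46.2 and 48.9 CPM and then 38.0, 40.5 and 39.6 CPM (-0.28, SE 0.043, edgeR adjusted p = 3.18e-07). The arms did not overlap for either gene. With GC and length offsets TIMM17B stayed at 0.65, whereas TIMM17A was at 0.0042 and lost its call (edgeR adjusted p = 0.929).

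The other TIM23 subunits moved less evenly. TIMM50, the receptor facing the intermembrane space, fell from 74.6, 71.3 and 75.1 CPM to 68.1, 65.9 and 66.6 CPM (log2 fold change -0.14, SE 0.037). TIMM21, which links TIM23 to the TOM complex and to respiratory chain assembly, fell from 17.7, 17.3 and 17.1 CPM to 12.8, 13.9 and 11.6 CPM (-0.44, SE 0.068), and with the offsets it was at -0.27. TIMM23, the channel, was called higher although its arms overlapped, with 134, 118 and 116 CPM in shCtrl and 133, 140 and 133 CPM in shMEX3A (0.14, SE 0.046, edgeR adjusted p = 0.0119). That call was lost without shCtrl replicate 2 (edgeR adjusted p = 0.0587) and without shMEX3A replicate 2 (edgeR adjusted p = 0.0643), while the offsets took TIMM23 to 0.31. TIMM23B, a near-identical copy of TIMM23, rose from 5.39 ± 0.604 to 7.83 ± 0.350 CPM (SD, n = 3 each; 0.53, SE 0.095), and how reads were divided between the copies is not given in the sources used here.

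Of the 5 tested motor genes 3 fell, and HSPA9 at their centre was not called. HSPA9, the HSP70 that pulls precursors into the matrix, was at 699, 681 and 684 CPM in shCtrl and 686, 710 and 677 CPM in shMEX3A, with full overlap (log2 fold change 0.01, SE 0.029, edgeR adjusted p = 0.846). With GC and length offsets it was at 0.08 and called higher (edgeR adjusted p = 0.00744). TIMM44, which anchors HSPA9 to the channel, fell from 62.9, 61.9 and 60.5 CPM to 43.7, 48 and 46.6 CPM (-0.42, SE 0.041, edgeR adjusted p = 1.28e-11). GRPEL1, the nucleotide exchange factor that resets HSPA9, fell from 52.0, 51.2 and 54.7 CPM to 39.9, 43.3 and 41.6 CPM (-0.34, SE 0.043). Neither TIMM44 nor GRPEL1 had overlapping arms.

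Of the J-proteins that start the HSPA9 cycle, 1 was not called and 1 fell slightly. DNAJC19 was at 11.3, 11.0 and 10.8 CPM and then 11.7, 11.1 and 10.3 CPM (log2 fold change 0.0015, SE 0.074, edgeR adjusted p = 0.987), and with GC and length offsets it was called higher, at 0.31. DNAJC15, its paralog, fell from 19.0, 18.4 and 18.6 CPM to 17.6, 16.5 and 16.3 CPM (-0.15, SE 0.060, edgeR adjusted p = 0.0216). The call of DNAJC15 was lost, at nearly the same value, without shCtrl replicate 1 (-0.14, edgeR adjusted p = 0.0605), shMEX3A replicate 2 (-0.14, edgeR adjusted p = 0.0764) or shMEX3A replicate 3 (-0.14, edgeR adjusted p = 0.0697) and with DESeq2 (-0.15, DESeq2 adjusted p = 0.0723). With the offsets the value itself moved, to -0.05 (edgeR adjusted p = 0.411).

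The small TIM chaperones, hexameric escorts in the intermembrane space, gave 4 falls and 1 rise. TIMM9 and TIMM10, which form one hexamer, fell by similar amounts. TIMM9 had 18.1, 16.9 and 18.1 CPM in shCtrl and 13.3, 12.95 and 11.7 CPM in shMEX3A (log2 fold change -0.48, SE 0.066). TIMM10 had 24.5, 22.1 and 20.6 CPM and then 14.9, 15.6 and 17.8 CPM (-0.49, SE 0.070). In both genes the arms were apart, and the offsets took TIMM9 to -0.19 and TIMM10 to -0.41. In TIMM9 30.5% of the exon bases lie under exons of genes on the other strand, which include KIAA0586, itself lower in shMEX3A (-0.23, SE 0.058).

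The second hexamer pairs TIMM13 with TIMM8A or TIMM8B, and these did not move alike. TIMM13 fell from 85.1, 72.5 and 76.2 CPM to 54.3, 54.0 and 54.4 CPM (log2 fold change -0.52, SE 0.045, edgeR adjusted p = 1.58e-10), and the shMEX3A libraries were much tighter than the shCtrl ones. Exons of TMPRSS9 and LMNB2 cover 28.9% of the exon bases of TIMM13. This includes the 15.9% of its exon bases that lie under exons on the other strand. TIMM8A, the member mutated in deafness-dystonia syndrome, fell from 10.2, 9.84 and 12.1 CPM to 9.25, 7.98 and 8.85 CPM (-0.31, SE 0.085), and was no longer called once GC and length offsets were added (-0.15, edgeR adjusted p = 0.103). TIMM8B was called higher, with 49.8, 42.7 and 43.0 CPM and then 49.7, 53.0 and 51.2 CPM (0.18, SE 0.050, edgeR adjusted p = 0.00266). Its arms overlapped through shCtrl replicate 1, and the offsets took it to 0.40.

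TIMM8B spans chromosome 11, 112084800 to 112086798, minus strand, and 32.3% of its exon bases lie under exons of NKAPD1 and SDHD on the other strand. SDHD, a subunit of respiratory complex II, fell from 49.6 ± 2.83 to 20.8 ± 1.51 CPM (SD, n = 3 each; log2 fold change -1.25), and NKAPD1 was at -0.72. These neighbours thus went the opposite way to TIMM8B. Without the strand setting of the counting, which is not given in the sources used here, reads of the overlap cannot be told apart.

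Of the TIM22 translocase, which inserts carriers into the inner membrane, the channel and an accessory subunit were listed. TIMM22, the channel, was at 43.3, 41.4 and 41.8 CPM in shCtrl and 40.6, 41.8 and 41.2 CPM in shMEX3A, with overlapping arms (log2 fold change -0.03, SE 0.043, edgeR adjusted p = 0.499). TIMM29, a metazoan subunit that steadies the complex, fell from 17.8, 19.0 and 18.4 CPM to 15.4, 14.4 and 14.3 CPM (-0.32, SE 0.062).

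The SAM complex, which folds beta-barrel proteins into the outer membrane, had 1 of its 3 genes called. SAMM50, the barrel that does the insertion, was at 83.5, 79.5 and 79.7 CPM and then 79.1, 80.9 and 77.6 CPM (log2 fold change -0.03, SE 0.036, edgeR adjusted p = 0.457). Of its metaxin partners, MTX1 fell from 26.1, 26.4 and 26.4 CPM to 24.3, 22.3 and 24.0 CPM (-0.16, SE 0.053, edgeR adjusted p = 0.00776), a call lost without shMEX3A replicate 2 (edgeR adjusted p = 0.0757). In MTX1 21.9% of the exon bases lie under exons of genes on the other strand. MTX2 was at 39.2, 38.3 and 37.6 CPM and then 35.1, 39.4 and 34.8 CPM (-0.07, SE 0.048, edgeR adjusted p = 0.188). Without shMEX3A replicate 2, the one high library, MTX2 was called lower (-0.13, edgeR adjusted p = 0.0237). With GC and length offsets MTX2 was called higher at 0.20 and SAMM50 at 0.08, while MTX1 was at -0.25.

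Both enzymes of the MIA pathway fell. CHCHD4, the oxidoreductase that puts disulfides into incoming proteins, had 13.4, 13.9 and 13.4 CPM in shCtrl and 8.96, 9.04 and 10.1 CPM in shMEX3A (log2 fold change -0.54, SE 0.073, edgeR adjusted p = 3.36e-08). CHCHD4 spans chromosome 3, 14112077 to 14124870, minus strand. GFER, the sulfhydryl oxidase that recharges CHCHD4, had 48.8, 44.5 and 42.9 CPM and then 36.2, 40.3 and 41.5 CPM (-0.21, SE 0.052), with a gap of little more than 1 CPM between the arms, and the offsets took it to -0.34. In GFER 25.9% of the exon bases lie under exons of AC005606.2 on the other strand. Genes for 4 proteins that CHCHD4 oxidises, taken from a separate list, each rose, with the arms apart. They were the copper chaperone COX17 (0.32), the cytochrome oxidase assembly factor COX19 (0.22), CHCHD2 (0.19) and CHCHD10 (1.00, SE 0.172). The arms of COX17 were close, with 10.04 CPM in shCtrl replicate 1 and 10.29 CPM in shMEX3A replicate 1. CHCHD10 was spread in shCtrl, at 37.2, 27.2 and 24.8 CPM. Over all tested genes 34.0% were called higher, and in 35.4% all shMEX3A libraries lay above. These 4 are not all the substrates of CHCHD4. The small TIM chaperones, which CHCHD4 also oxidises, gave 4 falls and 1 rise, so the substrates named here did not move alike.

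The presequence peptidase, a dimer that cuts targeting signals in the matrix, had its subunits apart. PMPCB, the catalytic beta subunit (chromosome 7, 103297422 to 103329511, plus strand), fell from 128, 120 and 124 CPM to 84.2, 84.2 and 83.1 CPM (log2 fold change -0.56, SE 0.035, edgeR adjusted p = 3.38e-17). PMPCA, the alpha subunit that binds the precursor (chromosome 9, 136410570 to 136423761, plus strand), rose from 117, 116 and 107 CPM to 135, 139 and 135 CPM (0.27, SE 0.035, edgeR adjusted p = 1.4e-08). In PMPCB 12.99% of the exon bases lie under exons of DNAJC2 on the other strand, itself lower in shMEX3A (-0.34, SE 0.059). Per kilobase of the longest coding transcript PMPCB and PMPCA were at 50.1 and 48.9 CPM in shCtrl and at 33.9 and 58.8 CPM in shMEX3A. Per kilobase of all annotated exons they were at 25.6 and 17.2 CPM and then at 17.3 and 20.7 CPM, so PMPCB went from the higher to the lower on both scales, while the size of the gap depended on the length used. With GC and length offsets the values were -0.32 for PMPCB and 0.16 for PMPCA, both still called.

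Ratios of paired genes inside a library do not depend on how libraries are scaled to each other. Over 8 pairs, chosen as paralogs or partners in one complex, an exact two-sided permutation test of 3 against 3 libraries cannot go below p = 0.1, and 6 of the 8 pairs reached that value (adjusted p = 0.133 over the 8 pairs). Any ratio whose arms do not overlap reaches it, so 6 of 8 is no result about these pairs. For single tested genes the arms did not overlap in 72.3%, and the share over other pairs was not computed. The ratio of TIMM17B to TIMM17A counts was 0.588, 0.627 and 0.617 in shCtrl and 1.27, 1.14 and 1.24 in shMEX3A, so the libraries of the arms lay on opposite sides of 1. Per kilobase of the longest coding transcript TIMM17B went from 26.6 to 43.6 CPM and TIMM17A from 28.9 to 23.7 CPM, so their order turned on that scale too, as it did per kilobase of all annotated exons (11.4 to 18.7 CPM and 13.6 to 11.2 CPM). The ratio of PMPCB to PMPCA went from 1.09, 1.04 and 1.15 to 0.623, 0.605 and 0.618. On the log2 scale these ratios differed between arms by 0.99 and -0.83. The ratios carry no offsets for GC content or length. With those offsets the log2 fold changes within each pair lay closer together than without them. They were 0.65 for TIMM17B and 0.0042 for TIMM17A, and -0.32 for PMPCB and 0.16 for PMPCA.

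The other pairs showed smaller shifts or none beyond the spread. TIMM44 per TIMM23 changed by -0.57 and TIMM8B per TIMM8A by 0.48 on the log2 scale, the latter with a wide shCtrl range of 3.55 to 4.88. GRPEL2 per GRPEL1, the pair of exchange factors, changed by -0.56, and DNAJC15 per DNAJC19 by -0.15. TIMM9 per TIMM10 differed by -0.0047 (exact permutation p = 1.00) and MTX2 per MTX1 by 0.08 (exact permutation p = 0.700), both less than the spread between libraries.

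**Figure D2:**
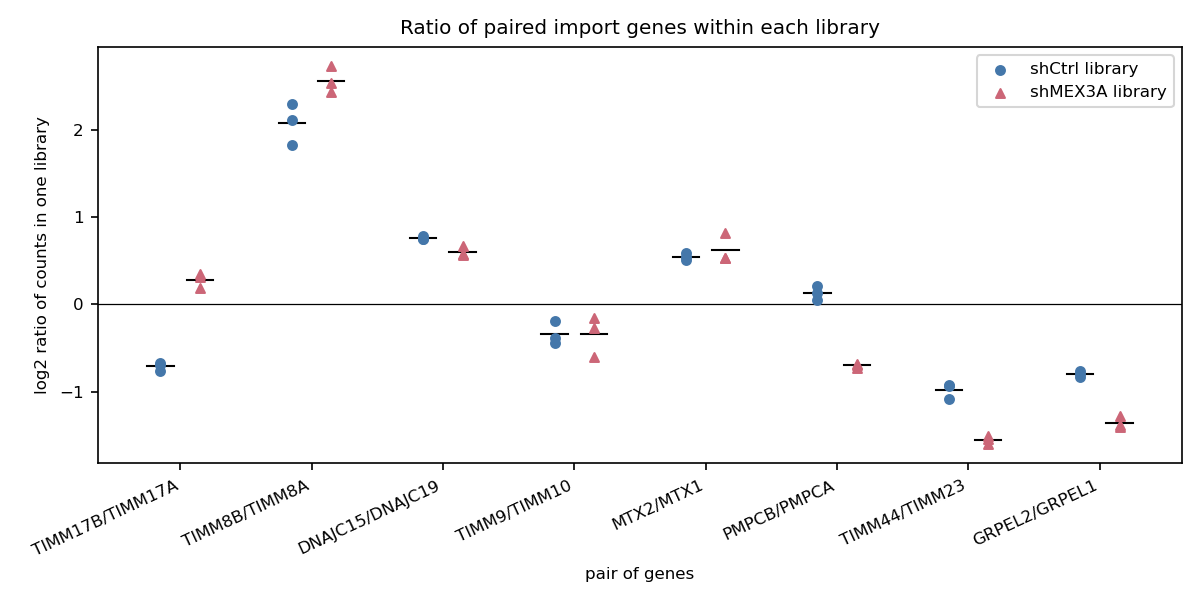
Ratio of counts of 2 genes within each library on a log2 axis, with gene pairs on the horizontal axis, circles for shCtrl, triangles for shMEX3A and bars for the mean of 3 libraries. The TIMM17B/TIMM17A ratio crosses 1 (0 on the axis) from 0.610 to 1.22, and PMPCB/PMPCA crosses it the other way, from 1.09 to 0.615 (geometric means).

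GC content differs strongly within both pairs. The longest coding transcript has 60.2% GC in TIMM17B and 40.6% in TIMM17A, and 59.7% in PMPCA and 39.6% in PMPCB, so in both pairs the gene that rose is the richer in GC. Over all tested genes with a GC value, those of high GC tended upwards. Among the 11 import genes of lowest GC (38.7% to 43.5%) 8 fell and 0 rose, with a median log2 fold change of -0.23, against -0.13 over the 2890 tested genes in that GC range, of which 46.9% fell and 23.2% rose. Among the 10 in the middle (44.5% to 51.6%) 6 fell and 2 rose, with a median of -0.29 against -0.06 over 3561 genes, of which 40.1% fell and 31.5% rose. Among the 11 of highest GC (51.7% to 63.6%) 6 fell and 3 rose, with a median of -0.14 against 0.08 over 5151 genes, of which 30.4% fell and 42.5% rose. Once GC and length offsets were added, the 11 genes of lowest GC had 4 lower and 3 higher (median -0.06). The 10 in the middle had 6 lower and 4 higher (-0.16), and the 11 of highest GC 7 lower and 3 higher (-0.22). Shares over all genes of each GC range were not computed with the offsets. Across the 32 genes GC and log2 fold change had a Pearson r of 0.19 and a Spearman rho of 0.11, and across 14480 tested genes 0.17 and 0.19, in both cases across genes that share the same libraries and are not independent replicates.

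**Figure D3:**
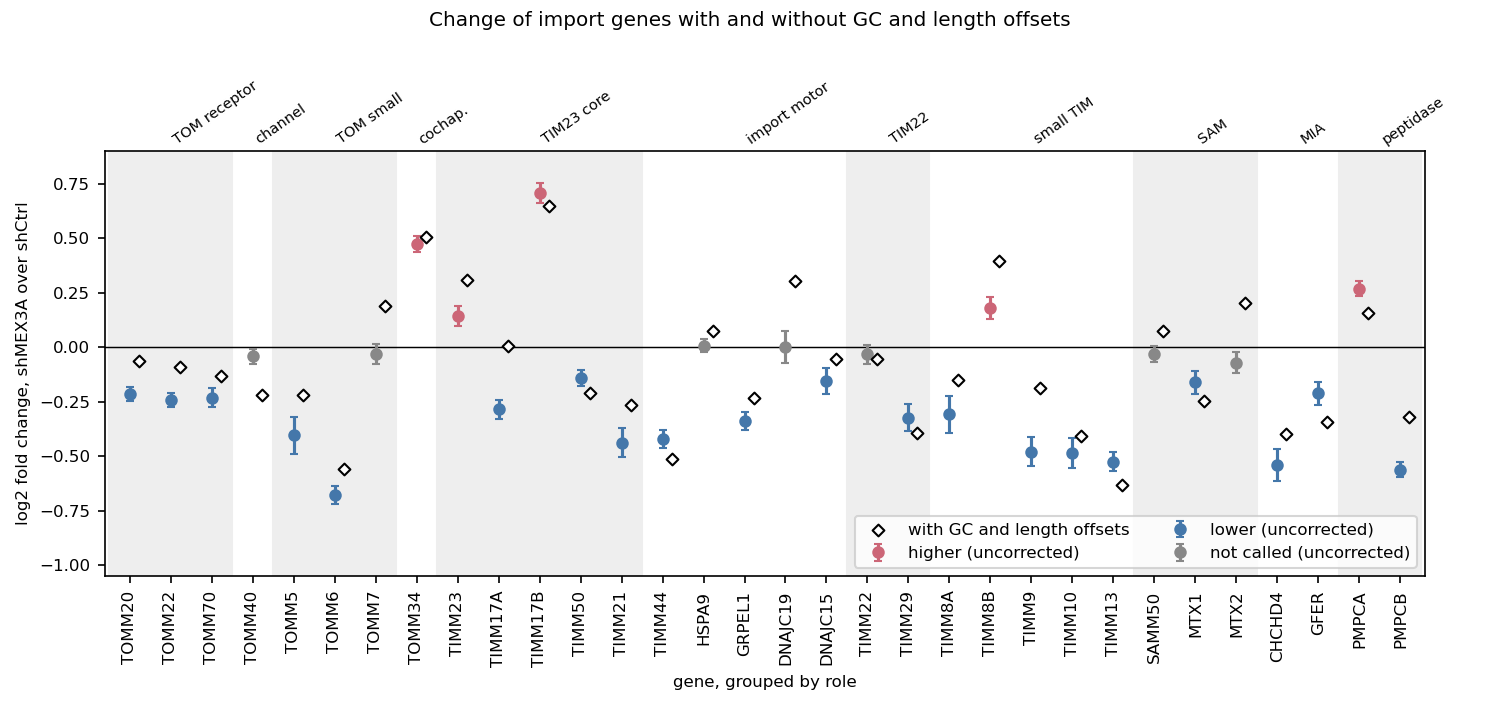
Log2 fold change of each tested import gene, shMEX3A over shCtrl, with its standard error (circles without offsets, coloured by call, bars for the SE) and the value with GC and length offsets (diamonds), genes grouped by role. TIMM17B (0.71 and 0.65) and TOMM6 (-0.68 and -0.56) stay far from 0 either way, while TIMM17A moves from -0.28 to 0.0042.

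Compared per length of transcript, the import genes spanned a wide range of levels in shCtrl. HSPA9 (146 CPM per kilobase of its longest coding transcript), TIMM23 (100.2), TOMM6 (97.6) and TOMM22 (72.5) were the most abundant. DNAJC15 (2.38), TIMM8A (3.62), TIMM21 (5.61) and DNAJC19 (7.61) were the least abundant of those tested. With the joined length of all annotated exons in place of the longest transcript the same 4 genes led, with TIMM23 and TOMM6 ahead of HSPA9 (83.3), and the same 4 closed the order. Per kilobase PAM16 was at 0.271. Its exons overlap those of the readthrough gene CORO7-PAM16, whose row held 0 counts in each library. How reads of this overlap were counted is not given in the sources used here, so the value may not give the level of PAM16.

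Further genes of the pathway were taken from a list of 34 outside the 33, of which 33 were tested, and 14 rose while 7 fell, where 34.0% of all tested genes rose and 35.6% fell. Their median log2 fold change was 0.02. With GC and length offsets 17 of the list were called higher and 9 lower. Over all 14480 genes tested with these offsets, 5287 were higher and 5207 lower. By role and without the offsets, 5 of 7 cytosolic chaperones rose and 0 fell, and 4 of 4 listed MIA substrates rose. That list leaves out the small TIM chaperones, also substrates of CHCHD4, of which 4 fell and 1 rose. Of 6 tested outer membrane genes 3 rose and 0 fell. In the inner membrane group 5 of 9 fell and 2 rose, and of the further peptidases 2 of 5 fell and 0 rose. Of the matrix folding pair, HSPD1 was at -0.05 (SE 0.029) and not called. HSPE1, not called either, had 43 to 75 counts in a library (-0.17, SE 0.208), too few to show a small change. In HSPE1 23.9% of the exon bases lie under exons of HSPD1 and of HSPE1-MOB4. How reads of this overlap were counted is not given in the sources used here, so the counts may not give the level of HSPE1.

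In this list the rises with the smallest p were ATAD1 and UBQLN2. ATAD1, an ATPase that pulls misplaced proteins out of the outer membrane, rose from 66.4, 64.8 and 68.1 CPM to 95.2, 89.98 and 92.9 CPM (log2 fold change 0.48, SE 0.037). UBQLN2, a ubiquilin that shields membrane proteins in the cytosol, rose from 51.1, 53.0 and 52.8 CPM to 68.2, 65.7 and 71.3 CPM (0.39, SE 0.039). The falls with the smallest p were in YME1L1 and GRPEL2. YME1L1, an inner membrane protease known to degrade TIMM17A protein, fell from 296, 283 and 294 CPM to 190, 182 and 180 CPM (-0.66, SE 0.031). GRPEL2, the second exchange factor for HSPA9, fell from 29.9, 30.1 and 30.6 CPM to 16.5, 16.5 and 15.6 CPM (-0.89, SE 0.055). The arms were apart in each of these 4 genes, which a choice by smallest p favours, and in 72.3% of all tested genes.

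**Figure D4:**
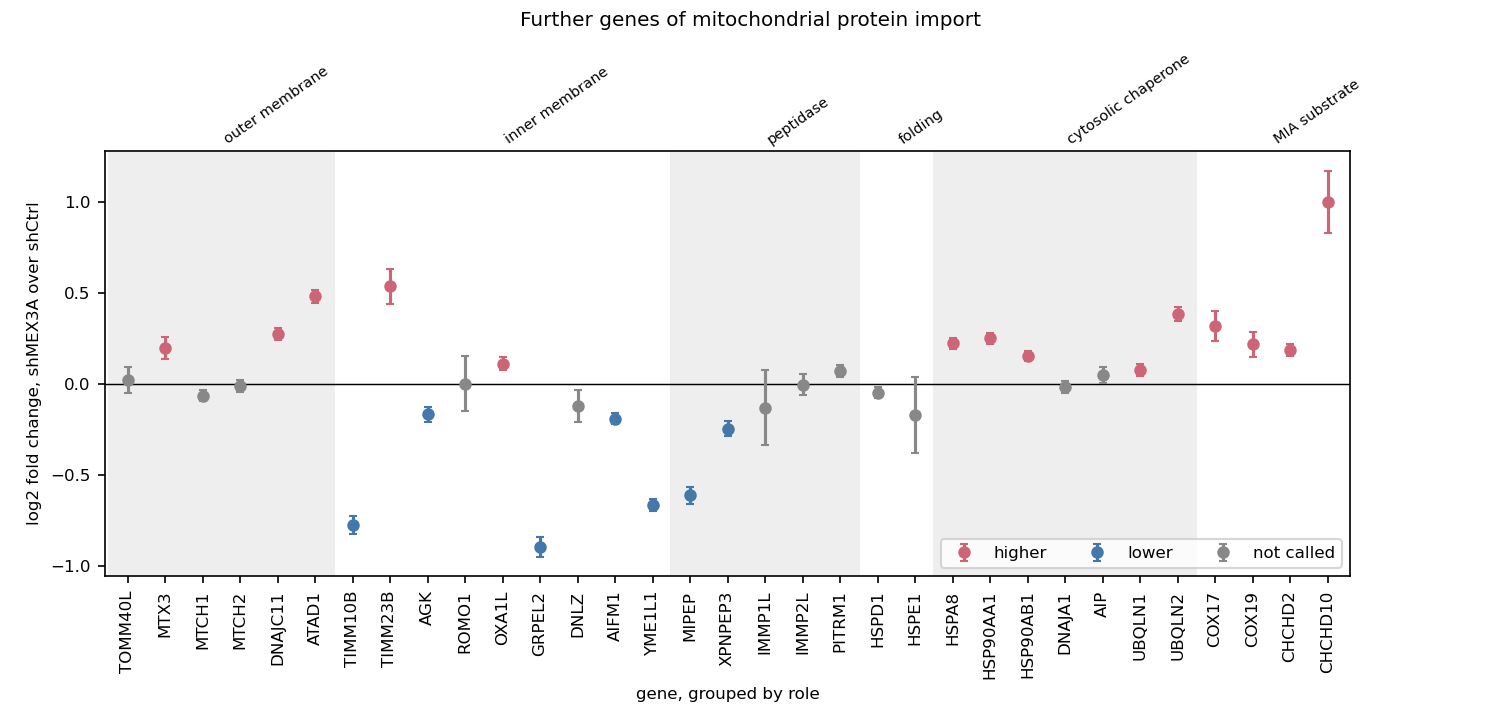
Log2 fold change, shMEX3A over shCtrl, with its standard error for 33 further genes of protein import, grouped by role and coloured by call. The 4 listed MIA substrates lie above 0 and GRPEL2, at -0.89, is the lowest. The small TIM chaperones, also substrates of CHCHD4, are not in this list.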

How the data were processed

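The authors deposited raw read counts per gene for the 6 libraries, whole numbers with 1 column per library and totals of 34662635 to 48228216. Per the submitters' processing notes, the tools were edgeR 4.0.16, HTSeq 2.0.4, STAR and fastp 0.20.0, and the build GRCh38. For the annotation and the strand setting, each was not given in the sources used here.

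The test was edgeR 4.0.16 under R 4.3.3 (filterByExpr, TMM, robust quasi-likelihood fit, 4 residual degrees of freedom), with Benjamini-Hochberg adjustment over 15679 genes and a threshold of 0.05. The standard error of a fold change came from its F statistic. CPM values use TMM-scaled totals. Ratios within a library had 0.5 added to each count. Gene positions, length and GC content (longest coding transcript) came from GENCODE 29, and promoters (the first listed for each gene) from RefSeq. The offsets were natural splines of GC content and log length with 5 degrees of freedom each, fitted per library.

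The genes and lists were chosen with earlier results of these data known. Named are the 33 import genes, MEX3A and, of the further list, the 2 called genes of smallest p in each direction, and COX17, COX19, CHCHD2, CHCHD10, HSPD1, HSPE1, TIMM23B, overlapping neighbours and cell markers are named beside this rule, chosen after their values were seen. On simulated counts for the comparison of the arms, over 15679 genes with 200 genes changed, the test found 37 of the 40 genes set to a 2-fold change, 73 of the 80 set to 1.5-fold and 62 of the 80 set to 1.25-fold, and 12 of its 184 calls were false. In the data 69.7% of tested genes were called, far more than were changed in the simulation, so these rates do not carry over directly. Within an arm, no pair of libraries was as close as sampling alone gives (chi-square per degree of freedom 2.69 to 6.15), so none was counted as a duplicate. Alternatives were DESeq2 1.42.0, limma 3.58.1 voom, other scalings and filters, the replicate block, the GC and length offsets, omission of the mitochondrially encoded genes, and omission of 1 library at a time.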

Additional observations from a re-analysis of the deposited data

How the results depend on the processing

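Offsets for GC content and transcript length changed the most: 10 import genes were then higher and the median of the import genes was -0.14 (without offsets on the same genes it was -0.19, a setting added after seeing the data). Over all 14480 genes tested with the offsets, 5287 were higher and 5207 lower. Under the offsets TOMM7 (0.19), TIMM17A (0.0042), SAMM50 (0.077) and MTX2 (0.20) turned in sign. Leaving out the mitochondrially encoded genes raised the share of counts in the import genes to 0.238% in shMEX3A and 0.258% in shCtrl. Of the values of import genes and the 4 further genes named by rule under alternatives, 576 in all, 558 stayed on their side of the threshold, 11 lost a call and 7 gained one, and the 4 that turned in sign are among these. HSPA9, DNAJC19 and TOMM7, all near 0, also changed sign without a call under other settings. Leaving out 1 library gave 4 to 5 import genes higher and 19 to 20 lower, and medians from -0.22 to -0.19. The labels' replicate numbers gave no pairing, since the correlation of deviations ran from -0.0769 to 0.0772 for equal numbers and 2 of 6 libraries were closest to their own number. With the replicate block 5 import genes were higher and 20 lower, and over all genes 5247 were higher and 5504 lower. No scaling moved the median of all genes by more than 0.0276 in log2. PAM16, at 4 to 12 counts, was too shallow to test.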
